A study of Mus musculus with 59 samples.

Results

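The normal hippocampus was compared with 4 other brain regions of WT mice. Its members were the 4 hippocampal RNA-seq libraries of the WT group, of 59 libraries in the series, and each was set against 4 WT libraries of the cerebellum, 4 of the brainstem, 4 of the striatum and 4 of the cortex. All mice were labelled C57BL/6, the study's methods naming C57BL/6J for the backcross of the edited lines, and were aged 10 weeks, and WT means that both copies of Atxn1 were wild type. Values for the 4 hippocampal libraries are given throughout in the order of the numbers in the labels, which recur in every region and are used here as mouse numbers, the first being mouse WT-70, the second WT-77, then WT-220 and last WT-221. The other groups were Atxn1_154Q/2Q mice (154Q), which carry an expanded glutamine tract in 1 Atxn1 allele, and Atxn1_154Q[V591A;S602D]/2Q mice (154Q-AXH), which carry 2 further changes in that allele. Both alleles are knock-ins present in every cell, with 4 libraries a region except 3 from the 154Q-AXH brainstem. A library is polyA RNA from 1 dissected region of 1 mouse, so all cell types of the region are mixed, and a larger share of a cell type cannot be told apart from more RNA per cell.

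The hippocampus is the part of the forebrain best known for forming memories of places and events. Input from the cortex reaches the granule cells of the dentate gyrus, which contact the pyramidal cells of CA3, and these contact those of CA1, while CA2 is a small field between them. Granule and pyramidal cells release glutamate, and scattered interneurons release GABA. Prox1, a homeodomain transcription factor that gives dentate granule cells their identity, was used to check the tissue label.

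Levels are given in CPM, the counts divided by library size, which was scaled by edgeR's TMM factors, and multiplied by 1e+06. A gene was called regional when edgeR's quasi-likelihood test gave a Benjamini-Hochberg adjusted p under 0.05 against each of the 4 regions with the same sign. Of 22200 genes tested, 61.5% differed between hippocampus and cerebellum, 58.2% between hippocampus and brainstem, 58% between hippocampus and striatum, and 55.3% between hippocampus and cortex. By direction, the share of genes higher and lower in the hippocampus was 30% and 31.6% against the cerebellum, 30% and 28.3% against the brainstem, 28.9% and 29.1% against the striatum, and 28.9% and 26.4% against the cortex. In all, 2269 genes (10.2%) were regional. Of these, 1236 (5.57%) were higher in the hippocampus than in every other region and 1033 (4.65%) were lower. The smallest of the 4 differences of a gene, used below as its size, had a median log2 fold change of 0.63 over the higher genes and -0.39 over the lower genes. It was at least 2-fold for 380 of the higher genes (1.71% of those tested) and for 106 of the lower genes (0.477%). All 4 hippocampal libraries lay above all 16 others for 1006 of the 1236 higher genes and below them for 730 of the 1033 lower genes, and over all genes tested 4.92% and 3.61% were separated in this way. At the edge of the rule, Exoc5 was the last gene inside, with a largest adjusted p of 0.049987 and a smallest log2 fold change of 0.12, and BX649560.1 was the first outside, with 0.050272 and 0.23.

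Several libraries held genes of a neighboring tissue. The WT striatal libraries of mice WT-70, WT-77 and WT-221 held 25.6 to 35.6 CPM of Emx1, a gene of cortical excitatory neurons, against 8.72 in that of mouse WT-220 and 30.8 to 36.4 in the cortex. Drd1, the dopamine receptor of striatal projection neurons, went the other way, at 67.6 to 91.3 CPM in the first 3 and 212 in the last. In the hippocampus, Ttr, the thyroid hormone carrier made by choroid plexus, measured 1417, 5004, 1615 and 1325 CPM, highest in mouse WT-77. The cortical library labelled WT-221 held 473 CPM of Xist and 0.903 of the Y-linked Ddx3y, against at most 5.9 and at least 62.2 in every other WT library, so its label is in doubt. With only the striatal library of mouse WT-220 kept, 1039 genes were higher and 938 lower, of which 941 and 811 were among those called with all libraries. Without the cortical library labelled WT-221, 1113 of the 1236 higher and 951 of the 1033 lower genes were still called. The median number of read pairs counted in genes was 80856709 for hippocampus (71587884 to 106454315), 79822500 for cerebellum, 82493232 for brainstem, 37134564 for striatum and 42036417 for cortex. Against the striatum and cortex, fold changes also followed transcript length, with a Spearman correlation across 11613 protein-coding genes, which are not independent replicates, of 0.448 and 0.367, and of -0.0353 and 0.029 against the cerebellum and brainstem. With GC content the correlation was -0.463 against the striatum, -0.491 against the cortex, 0.102 against the cerebellum and 0.0827 against the brainstem. The median exonic length was 5578.5 bases in the higher genes and 3780 in the lower, against 4267 in all protein-coding genes tested. The median GC content was 48.0%, 53.2% and 49.9% in the same order. With length and GC content corrected, 1021 of the 1236 higher and 694 of the 1033 lower genes were still called, and so were 367 of the 380 and 94 of the 106 genes with at least a 2-fold difference.

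Prox1 was highest in the hippocampus. It measured 103, 116, 136 and 157 CPM there, against ranges of 48.2 to 72.9 for cerebellum, 36.1 to 46.3 for brainstem, 15 to 18 for striatum and 13.5 to 22.5 for cortex. No hippocampal library fell within the range of another region, and the log2 fold change was 1.05 against the cerebellum, 1.63 against the brainstem, 2.98 against the striatum and 2.86 against the cortex (largest edgeR adjusted p = 3.7e-06). The cerebellum and brainstem came next, with ranges that did not meet, and the ranges of striatum and cortex overlapped. The gene lies at chr1:190118035-190170714 (GRCm38), where its exons overlap those of the antisense gene Prox1os, and STAR, counting without regard to strand, assigns reads in shared exons to neither gene, so the value rests on the other exon sequence. The 5 genes whose log2 CPM followed that of Prox1 most closely over the 20 WT libraries were Zbtb20 (Pearson r = 0.988), Tbc1d8b (0.98), Tbl1xr1 (0.979), Fbxo11 (0.978) and Slc4a7 (0.977). These correlations describe libraries that share region and depth.

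Promoter sequence is shown for 3 genes that mark different parts of the hippocampal pattern: Prox1 for granule cells, Iyd for CA3 and Gabra5 for receptors. Each is the 250 bases before the RefSeq start site on GRCm38.p6, read 5′ to 3′ along the gene. Capitals mark CAGATG, an E-box bound by NeuroD factors, or its reverse complement CATCTG, searched on both strands. The Prox1 window is chr1:190170828-190171077, minus strand, that of Iyd is chr10:3540024-3540273, plus strand, and that of Gabra5 is chr7:57510060-57510309, minus strand. RefSeq places the Prox1 start upstream of the gene's 5′ end in GENCODE M21.
Prox1: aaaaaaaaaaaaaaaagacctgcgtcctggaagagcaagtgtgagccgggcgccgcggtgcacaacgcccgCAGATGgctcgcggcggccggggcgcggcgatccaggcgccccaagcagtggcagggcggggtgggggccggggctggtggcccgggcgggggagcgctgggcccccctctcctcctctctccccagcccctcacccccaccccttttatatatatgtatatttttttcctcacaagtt
Iyd: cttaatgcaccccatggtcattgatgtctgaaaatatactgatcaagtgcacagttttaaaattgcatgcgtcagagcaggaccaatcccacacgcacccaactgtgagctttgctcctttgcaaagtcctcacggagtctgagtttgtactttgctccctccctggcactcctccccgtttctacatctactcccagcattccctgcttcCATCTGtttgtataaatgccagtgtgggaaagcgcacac
Gabra5: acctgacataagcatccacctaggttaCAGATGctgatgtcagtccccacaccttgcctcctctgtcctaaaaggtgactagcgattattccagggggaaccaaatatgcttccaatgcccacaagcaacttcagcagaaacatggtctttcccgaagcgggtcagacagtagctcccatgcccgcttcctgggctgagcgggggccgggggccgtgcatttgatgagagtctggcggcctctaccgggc
The motif was found in 8 of the 40 genes named here as higher for which the table had a promoter, and in 14.5% of all 27025 promoters of that length in the table. The 3 genes shown were among these 8. The windows of C1ql2, Dsp, Lct, Grik4, Gabra2 and Npy2r, genes of the same parts, did not hold it. A match describes the letters of the window and nothing else.

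The markers of dentate granule cells were mostly higher in the hippocampus. Of 15 listed markers, all tested, 10 were higher than in every other region and none was lower. Over all genes the shares were 5.57% and 4.65%. The median log2 fold change of the 15 was 2.29 against the cerebellum, 1.81 against the brainstem, 1.48 against the striatum and 1.43 against the cortex, and over all genes tested it was -0.03, 0.04, 0.02 and 0.05. Summed over the list, the hippocampus held 948 to 1186 CPM and the cerebellum 1655 to 1793. C1ql2, a secreted synaptic organizer of mossy fiber terminals, measured 53.4, 81.8, 68.3 and 76.1 CPM, against ranges of 0.359 to 0.697 for cerebellum, 4.16 to 6.15 for brainstem, 1.02 to 3.36 for striatum and 7.88 to 18.5 for cortex. Dsp, which encodes the desmosomal protein desmoplakin, measured 57.5, 61.9, 78.9 and 88 CPM and at most 8.61 in any other library. Lct, which encodes lactase, measured 43.8, 39.3, 52.2 and 74.7 CPM, and its smallest log2 fold change was 4.03 ± 0.49 (SE) against the cortex (adjusted p = 9.3e-07). The highest values of Dsp and Lct outside the hippocampus were both in the cortex. Smaller differences were seen for Plekha2 (smallest log2 fold change 1.09 ± 0.18 (SE) against the striatum), Stxbp6 (0.88 ± 0.12 (SE) against the cortex), C1ql3 (0.67 ± 0.22 (SE) against the cortex) and Il1rap (0.49 ± 0.06 (SE) against the brainstem). C1ql3, a relative of C1ql2, lost its call on 1 strand's counts (log2 fold change 0.29) and when the cortical library of mouse WT-77 was left out (0.57). The call was also lost without any library of mouse WT-77 (0.65) or of mouse WT-221 (0.60), and at an edgeR adjusted p threshold of 0.01. The other 5 markers were not regional. Calb1, which encodes the calcium buffer calbindin, measured 158, 169.8, 158 and 151 CPM in the hippocampus and 1442 to 1550.3 in the cerebellum, and Tdo2, a tryptophan-degrading enzyme, differed by a log2 fold change of 0.34 from the cerebellum (edgeR adjusted p = 0.19) and by at least 3.18 from the others.

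**Figure D1:**
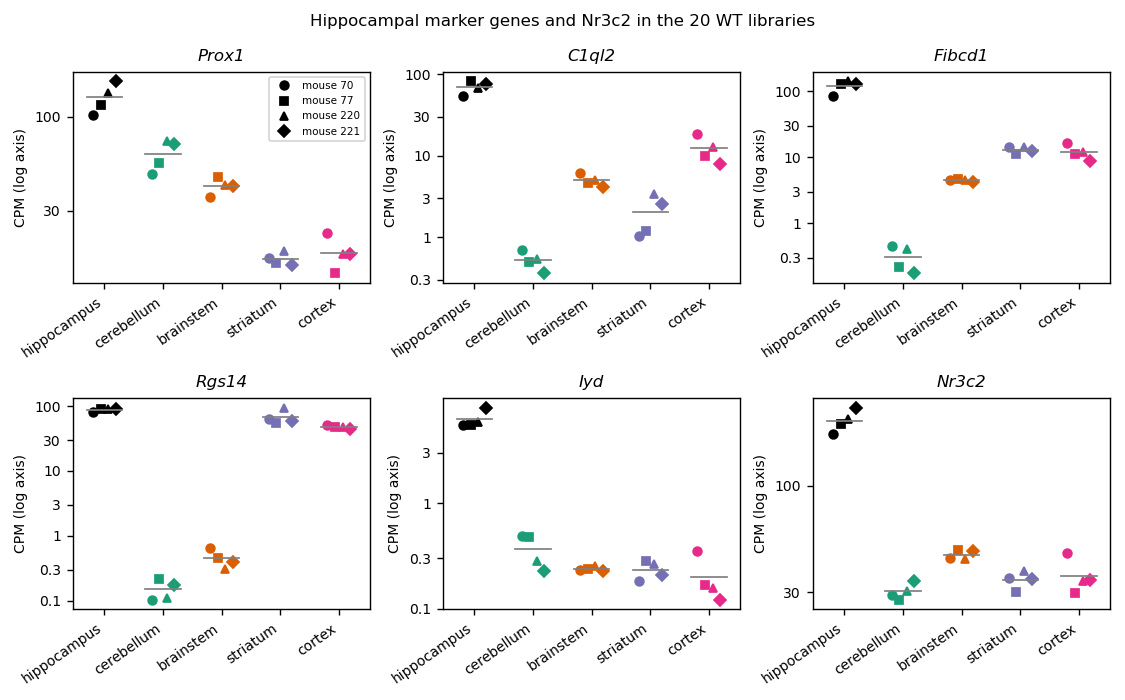
CPM on a log axis for 6 genes in each of the 20 WT libraries, by region, with 1 point a library, marked by mouse, and a grey line at the mean of the 4 libraries. Prox1 and C1ql2 mark dentate granule cells, Fibcd1 marks CA1, Rgs14 marks CA2, Iyd marks CA3, and Nr3c2 is the mineralocorticoid receptor. The hippocampal points lie above all others except for Rgs14, where the striatal library of mouse WT-220 reached 95.3 CPM.

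Part of the markers of each pyramidal field was called higher. Over all genes 5.57% were higher and 4.65% lower, and differences from these shares were not tested. For CA1, 4 of 9 tested markers were regional and higher. Fibcd1, a membrane receptor that binds acetylated groups, measured 85.5, 129.8, 142 and 130.0 CPM, with 0.173 to 16.7 in the 16 other libraries. Spink8, a serine protease inhibitor, measured 14.6, 19.5, 18 and 18.6 CPM and at most 2.16 elsewhere. Galnt3 and Man1a, both enzymes of protein glycosylation, had smallest log2 fold changes of 1.75 ± 0.15 (SE) against the cortex and 1.04 ± 0.14 (SE) against the striatum. Other CA1 markers were shared with the cortex, and Mpped1 measured 175, 155, 193 and 171 CPM in the hippocampus and 270.3 to 289 in the cortex. For CA2, 4 of 8 were higher. Summed over that list, the hippocampus held 339 to 360 CPM, less than the striatum (851 to 1914) and the cortex (400 to 429). The cerebellum held 155.6 to 164.8 and the brainstem 229.5 to 240.7. Avpr1b, a vasopressin receptor, was low at 0.455, 0.604, 0.852 and 0.79 CPM, and at most 0.0632 CPM in any other library. Rgs14, a signaling regulator that limits plasticity in CA2, measured 82.3, 90.9, 89.2 and 92 CPM, with 55.1 to 95.3 in the striatum, where it overlapped. For CA3, 5 of 11 were higher. Iyd, an enzyme that recovers iodide, measured 5.52, 5.58, 5.85 and 8.1 CPM and 0.122 to 0.489 elsewhere, with its smallest log2 fold change at 4.08 ± 0.24 (SE) against the cerebellum (adjusted p = 5.6e-11). Grik4, a kainate receptor subunit, Nectin3, an adhesion protein, Cdh24, a cadherin, and Trps1, a zinc finger factor, had smaller differences. Of 8 markers of mossy cells, Ociad2 and Csf2rb2 were higher, and of 7 markers of Cajal-Retzius cells none was regional. Over all genes 10.2% were regional in either direction, and a list this short can hold none at that share.

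Transcription factors were called regional at rates close to those of all genes. Of 669 tested, 48 were higher (7.17%) and 28 lower (4.19%), against 5.57% and 4.65% of all genes. Nr3c2, the mineralocorticoid receptor, which binds corticosterone at low levels, measured 178, 201, 213 and 242 CPM, against ranges of 27.7 to 34.1 for cerebellum, 43.7 to 48.3 for brainstem, 30.1 to 38.1 for striatum and 29.7 to 46.6 for cortex. Its smallest log2 fold change was 2.18 ± 0.12 (SE) against the brainstem (edgeR adjusted p = 9.1e-12), and all 4 hippocampal libraries were above every other. Its relative Nr3c1, the glucocorticoid receptor, was not regional, at 113, 98.9, 114 and 118 CPM in the hippocampus and 90 to 179 elsewhere. Lhx9, a LIM homeodomain factor of the developing forebrain, had the largest size of the class, 2.41 ± 0.36 (SE) against the brainstem, at 13.8, 18.8, 19.1 and 20.6 CPM. It was also on the list of thalamus markers, of which it was the only regional gene among 13. The summed level of that list was 183 to 222 CPM in the hippocampus, 157 to 202 in the striatum and 167 to 198 in the cortex. It was higher in the cerebellum (1655 to 1948) and the brainstem (579.5 to 671.5). Whether adjacent tissue contributed was not tested. Rfx3, a factor of ciliated cells and neurons, measured 119, 126, 147 and 160.2 CPM and 13.3 to 46.6 elsewhere.

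Several higher factors are known from the making of forebrain neurons. Neurod6, a bHLH factor of pyramidal neurons, measured 234.7, 246, 269 and 288 CPM, against 96.7 to 119 in the cortex and 32.9 to 97 in the striatum, with a smallest log2 fold change of 1.29 ± 0.19 (SE) against the cortex. Neurod2, its relative, had 0.48 ± 0.20 (SE) against the cerebellum. Emx2, needed for hippocampal growth, measured 18.5, 19.1, 19.5 and 22.7 CPM, and 7.78 to 11.8 in the striatum and 7.53 to 14.5 in the cortex. Zbtb20, a zinc finger factor required for hippocampal identity, measured 278, 242, 368 and 480.4 CPM and 144 to 196 in the cerebellum, the next highest region. Zeb2, a repressor with roles in interneurons and glia whose exons overlap those of Zeb2os, measured 287, 282, 341 and 362 CPM and 72.1 to 143 elsewhere. Mycl, a MYC family member, and Glis3, a Kruppel-like factor of the dentate list, had sizes of 1.30 and 1.43. Over all genes 5.57% were higher and 4.65% lower. By family, 12 of 157 zinc finger factors, 8 of 78 bHLH factors, 5 of 151 homeobox factors and 5 of 48 bZIP factors were higher. The bZIP factors were Atf2, Cebpb, Cebpd, Jun and Nrl, and none of that family was lower.

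Fewer factors were lower in the hippocampus. Foxp2, a forkhead factor of striatal and deep cortical neurons, measured 6.0, 2.43, 2.37 and 1.62 CPM, against ranges of 11.1 to 13.9 for cerebellum, 10.9 to 14.7 for brainstem, 23.1 to 51 for striatum and 8.41 to 12.9 for cortex. Its size was -1.75 ± 0.30 (SE) against the cortex, and the hippocampal library of mouse WT-70 held the most Foxp2. Scrt1, a neuronal repressor, measured 111, 91.6, 111 and 112 CPM and 173 to 297 elsewhere. Nfic, a nuclear factor I member, measured 74, 54.7, 73 and 73.7 CPM and 82.9 to 202 elsewhere, and was no longer called when only the striatal library of mouse WT-220 was kept (log2 fold change -0.31). Cux1, a homeobox factor of upper cortical layers, measured 51.2, 34.7, 40 and 37.1 CPM and 68.4 to 137 elsewhere. Scx, a bHLH factor known from tendon, was low everywhere, at 1.44, 1.31, 1.14 and 1.17 CPM, and lost its call with length and GC content corrected (log2 fold change -0.38). Nuclear receptors were the family with the most lower genes for its size, 6 of 41 (Esrra, Esrrg, Nr1h2, Ppard, Rarb and Vdr), with 2 higher, Nr3c2 and Nr4a3. Over all genes 4.65% were lower and 5.57% higher. With length and GC content corrected, 42 of the 48 higher and 16 of the 28 lower factors were still called.

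**Figure D2:**
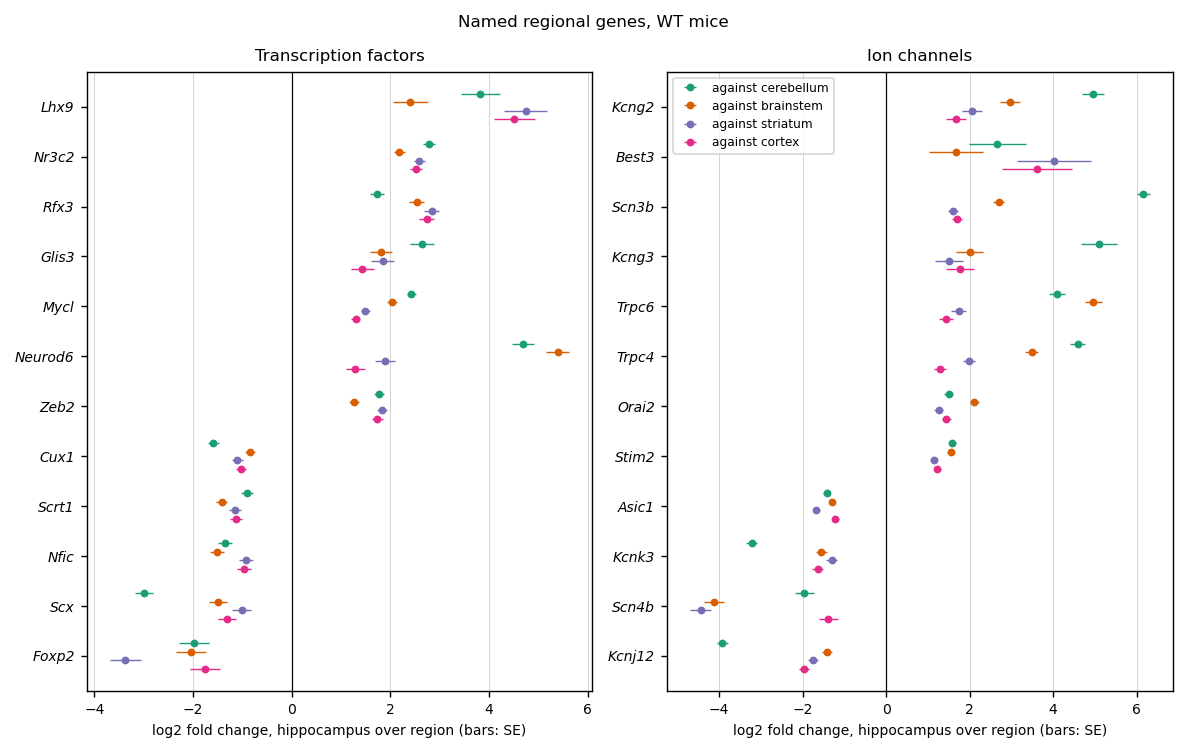
Log2 fold change of the hippocampus over each of 4 regions, with the standard error as a bar, for the named transcription factors (left) and ion channels (right) in WT mice, ordered by size, with 4 libraries a region. Higher genes stand in the upper part and lower genes in the lower part of each panel, and all points of a gene lie on 1 side of 0. Lhx9 ranges from 2.41 to 4.74 and Scn4b from -4.44 to -1.38.

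The ion channel class held 24 higher and 23 lower genes of 259 tested (9.27% and 8.88%). These shares were above the 5.57% and 4.65% of all genes, a difference that was not tested. Membership was set by gene symbol. It took in Tmem167b among the higher and Tmem163 among the lower genes, neither an established channel. Calcium channels and calcium store proteins leaned one way, with 8 of 34 higher and 1 lower. Orai2, a pore subunit of store-operated calcium entry, measured 163, 171, 199 and 213 CPM, against ranges of 62.2 to 72.6 for cerebellum, 40.1 to 45.4 for brainstem, 69.7 to 82.9 for striatum and 59.5 to 86.7 for cortex. Stim2, the store sensor that opens such pores, measured 131, 151, 153 and 163 CPM and 48.1 to 75.9 elsewhere. The ryanodine receptor Ryr3, which releases calcium from the store, measured 88.9, 84.8, 116 and 134 CPM and 17.4 to 73.3 elsewhere. Cacna1e and Cacna1h, pore subunits of R-type and T-type channels, had sizes of 0.84 ± 0.12 (SE) against the cerebellum and 0.81 ± 0.13 (SE) against the striatum. The single lower member was Cacna2d2, an auxiliary subunit, at 28.5, 29.8, 28.3 and 25.1 CPM and 36.9 to 196 elsewhere. Trpc4 and Trpc6, receptor-operated cation channels, were higher, with Trpc4 at 39.8, 48.1, 53 and 53.1 CPM against 18.7 to 21.6 in the cortex and at most 15.4 in the other regions. No hippocampal library of Trpc4 reached the range of another region.

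Potassium channels went both ways, with 8 of 91 higher and 14 lower, against 5.57% and 4.65% of all genes. Kcng2 and Kcng3, modifier subunits that join Kv2 channels, were higher, with Kcng2 at 16.4, 23.1, 22.3 and 22.7 CPM, against ranges of 0.492 to 0.934 for cerebellum, 2.09 to 3.14 for brainstem, 2.9 to 6.07 for striatum and 4.89 to 10.1 for cortex. Kcng3 was low, at 1.98, 1.04, 3.07 and 3.56 CPM and 0.0109 to 0.95 elsewhere. Kcnq3, a subunit of M-current channels, was higher by a smaller size, 0.41 ± 0.11 (SE) against the striatum. The G protein-gated channel Kcnj6 had 0.93 ± 0.35 (SE) against the cortex. Among the lower genes, Kcnj12, an inward rectifier, measured 5.28, 3.59, 5.23 and 4.01 CPM and 11.2 to 72.3 elsewhere, and Kcnk3, an acid-sensitive leak channel, measured 11.7, 7.98, 9.5 and 8.7 CPM and 16.1 to 92.8 elsewhere. Kcnc1, a fast Kv3 channel of fast-spiking cells, had -0.43 ± 0.13 (SE) against the striatum, and the pacemaker channels Hcn2 and Hcn4 had -0.25 ± 0.10 (SE) against the cerebellum and -0.75 ± 0.14 (SE) against the cortex. The sodium channel subunits Scn3b and Scn4b were opposed. Scn3b measured 281, 283, 334 and 367 CPM and 3.9 to 129.5 elsewhere, while Scn4b, which supports resurgent current, measured 36, 27.6, 29.1 and 31.9 CPM, against ranges of 112 to 131 for cerebellum, 530.4 to 563 for brainstem, 472 to 1163 for striatum and 55 to 99.7 for cortex. Asic1, an acid-sensing channel, was also lower, with a size of -1.22 ± 0.08 (SE) against the cortex. Best3, a bestrophin, was low at 1.46, 1.35, 1.29 and 1.4 CPM, and its call (adjusted p = 0.032) was lost under DESeq2 (1.62) and when the hippocampal library of mouse WT-70, WT-220 or WT-221 or the brainstem library of mouse WT-70 or WT-77 was left out (log2 fold change 1.31 to 1.68). With length and GC content corrected, 15 of the 24 higher and 20 of the 23 lower genes of the channel class were still called.

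Receptors and their partners leaned toward the hippocampus. Of 279 tested, 37 were higher (13.3%) and 15 lower (5.38%), against 5.57% and 4.65% of all genes, and the difference from all genes was not tested. Npy2r, the receptor for neuropeptide Y that dampens glutamate release from mossy fibers and other terminals, measured 50.6, 61.9, 68.4 and 74.5 CPM, against ranges of 0.239 to 0.50 for cerebellum, 8.15 to 10.4 for brainstem, 2.37 to 5.84 for striatum and 2.59 to 5.81 for cortex. Among receptors with at least 1 CPM in every hippocampal library it had the largest size, 2.82 ± 0.24 (SE) against the brainstem (edgeR adjusted p = 2.2e-09). Its relative Npy5r had 0.66 ± 0.18 (SE) against the cortex. Htr4, a serotonin receptor that raises cAMP, measured 11.3, 12.9, 15.5 and 16 CPM and 0.133 to 3.34 elsewhere, and Htr1a, which lowers it, had 0.71 ± 0.15 (SE) against the brainstem. Drd5, a dopamine receptor of the D1 class, measured 7.52, 8.8, 9.42 and 10 CPM and 0.185 to 2.3 elsewhere. No hippocampal library of these genes fell within the range of the others. Among acetylcholine receptors, 4 of 17 were higher and none was lower. Chrna5, an accessory nicotinic subunit, measured 5.77, 5.78, 8.2 and 6.04 CPM, highest in mouse WT-220, and at most 3.04 elsewhere, and Chrna7, which forms calcium-permeable receptors on its own, had 0.65 ± 0.14 (SE) against the brainstem. The other two were Chrna1 and Chrm5.

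Of 47 growth factor and neurotrophin receptors tested, 7 were higher (14.9%) and 2 lower (4.26%), against 5.57% and 4.65% of all genes. The higher ones included 4 Eph receptors, which guide axons and shape synapses on contact with ephrins. Epha6 measured 53.5, 47.4, 78.7 and 98.2 CPM, against ranges of 3.72 to 5.04 for cerebellum, 14.2 to 16 for brainstem, 8.98 to 11.5 for striatum and 11.1 to 15.9 for cortex. Epha7 measured 210.2, 217.98, 230.0 and 254 CPM and 25.1 to 86.7 elsewhere, and Epha4 and Epha5 had sizes of 1.19 ± 0.09 (SE) against the cortex and 0.90 ± 0.13 (SE) against the cortex. Epha8 was opposite, at 4.41, 2.66, 4.53 and 2.72 CPM in the hippocampus and 50.9 to 64.1 in the cerebellum. The activin receptors Acvr1 and Acvr2a and the transforming growth factor beta receptor Tgfbr1 were higher, with 0.46 ± 0.09 (SE) against the cortex for Acvr2a. Other lower genes were Crhr1, the main receptor for corticotropin-releasing hormone, at 13.5, 7.17, 10.9 and 10 CPM, and the ATP-gated channel P2rx4, at 10.1, 9.0, 9.49 and 9.18 CPM and 13.8 to 25.2 elsewhere. Crhr1 of mouse WT-70 overlapped the lowest striatal library, and its call was lost when only the striatal library of mouse WT-220 was kept (log2 fold change -0.28).

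**Figure D3:**
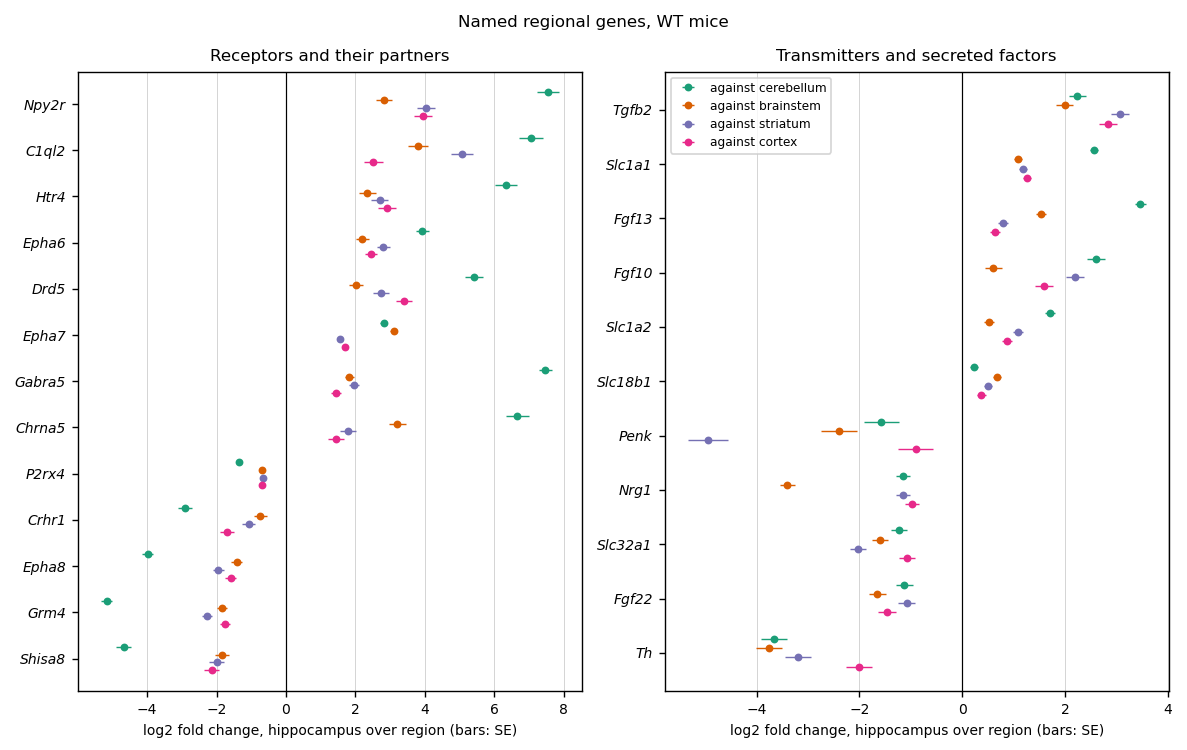
Log2 fold change of the hippocampus over each of 4 regions, with the standard error as a bar, for the named receptors (left) and the named transmitter genes and secreted factors (right) in WT mice, ordered by size, with 4 libraries a region. The points of Npy2r lie at 2.82 or above, and those of Th at -2.01 or below.

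GABA-A receptors are chloride channels built from subunits that set their place and kinetics. Of 15 subunits tested, 4 were higher in the hippocampus and none was lower than all regions, against 5.57% and 4.65% of all genes. The difference from these shares was not tested. Gabra5, the alpha subunit of extrasynaptic receptors that is known for its abundance in the hippocampus, measured 148.96, 165, 177 and 186 CPM, against ranges of 0.681 to 1.2 for cerebellum, 44.8 to 49.2 for brainstem, 31.9 to 51.7 for striatum and 54.3 to 69.3 for cortex. Its smallest log2 fold change was 1.44 ± 0.14 (SE) against the cortex (adjusted p = 3.5e-08). Gabra2 had 1.20 ± 0.13 (SE) against the brainstem, and the beta subunit Gabrb1 had 0.92 ± 0.12 (SE) against the brainstem. The hippocampal libraries of these 3 subunits were all above the 16 others. The exons of Gabrb1 overlap those of Gabra4, so reads in the shared part were counted for neither gene. The same holds for Grin3b with Tmem259 and Fgf22 with Rnf126. Gabrd, the delta subunit of tonic receptors in granule cells, was not regional, with a log2 fold change of 2.54 against the brainstem and of -2.87, -2.26 and -1.60 against the cerebellum, striatum and cortex. Per length, in CPM per kilobase of exon (mean ± SD, n = 4), the level in the hippocampus was 56.9 ± 5.31 for Gabra5 and 15.9 ± 1.45 for Gabra2. On this scale Gabra5 measured 21 ± 2.3 in the cortex and Gabra2 5.71 ± 0.127.

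Among the ionotropic glutamate receptors, AMPA and NMDA subunits were split. Of 16 AMPA, kainate and NMDA subunits, 5 were higher and 2 lower, against 5.57% and 4.65% of all genes. Gria1, the AMPA subunit added at synapses during potentiation, measured 964, 1122, 1264 and 1307 CPM, against ranges of 689 to 795 for cerebellum, 217.6 to 226 for brainstem, 297 to 351 for striatum and 281 to 333 for cortex. Gria2, which makes AMPA receptors impermeable to calcium, measured 1108, 1102, 1232 and 1355 CPM and 261 to 664 elsewhere. Gria2 kept its sign but not its call with length and GC content corrected (log2 fold change 0.11). Gria4 was lower, at 96.7, 64.8, 81.8 and 72.4 CPM, against 635 to 718 in the cerebellum and 78.5 to 118 in the striatum, where it overlapped. Its call was lost when only the striatal library of mouse WT-220 was kept (log2 fold change -0.03). It was also lost when all libraries of mouse WT-77 (-0.26) or of mouse WT-221 (-0.34) were left out. Of the NMDA subunits, Grin2b, the one with slow kinetics, measured 558, 469, 733 and 797 CPM and 25.9 to 258 elsewhere, and Grin2a measured 298, 270.4, 357 and 397 CPM and 59.7 to 166 elsewhere. The obligatory subunit Grin1 was not regional, at 234.7, 219.7, 257 and 258 CPM and 308 to 358 in the cortex. Grik4, a high-affinity kainate subunit of CA3, measured 39.9, 49.3, 50.7 and 52.2 CPM and 14.8 to 28.6 elsewhere. Grin3b was below 1 CPM in the hippocampus and its call (adjusted p = 0.045) was lost under 19 of 39 other settings, among them the omission of any of 7 single libraries and length and GC correction. Per length, Gria1 stood at 193 ± 25.7 CPM per kilobase in the hippocampus, Gria2 at 77.1 ± 7.71, Grin2b at 25.7 ± 6.13, Grin1 at 25 ± 1.89 and Gria4 at 12.5 ± 2.18.

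Proteins that travel with AMPA receptors followed no single direction. Cacng8, the stargazin relative of hippocampal AMPA receptors, measured 105, 119, 133 and 138 CPM and 7.36 to 62.7 elsewhere, whereas Cacng2, stargazin itself, measured 80.7, 76.9, 79.4 and 88.3 CPM and 90.9 to 215 elsewhere. Cnih2 and Shisa7, both auxiliary subunits, had sizes of 0.60 ± 0.14 (SE) against the striatum and 0.59 ± 0.11 (SE) against the striatum, and Lrrtm4, a synaptic adhesion protein of the dentate gyrus, had 0.86 ± 0.07 (SE) against the cortex. Shisa8 had the largest size among the lower receptor genes, -1.84, at 1.57, 1.56, 1.39 and 1.52 CPM against 4.25 to 49.2 elsewhere. Of 7 metabotropic receptors tested, Grm5, which couples to calcium release, was higher, at 296, 282, 362 and 357 CPM and 9.21 to 217.8 elsewhere. Grm4, which inhibits release from terminals, was lower, at 11.9, 7.83, 11.1 and 9.07 CPM against 336 to 388 in the cerebellum and 29.9 to 36.4 in the cortex.

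**Figure D4:**
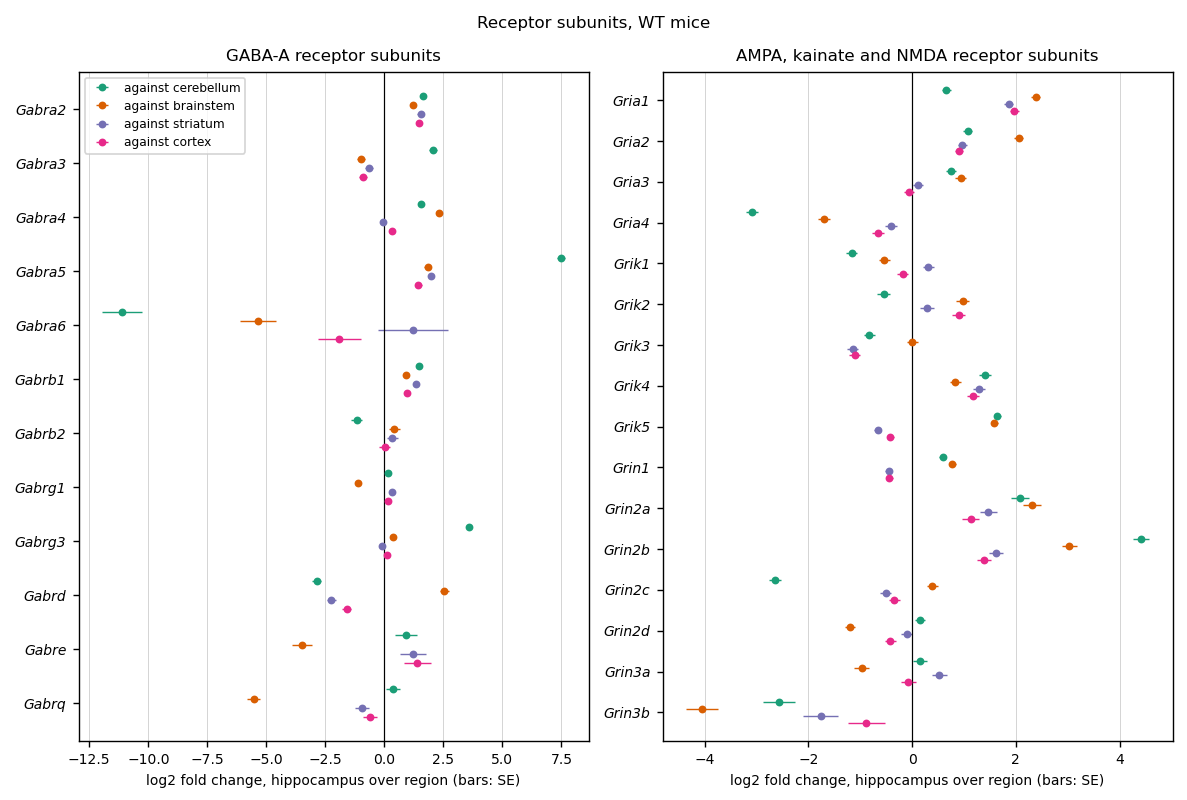
Log2 fold change of the hippocampus over each of 4 regions, with the standard error as a bar, for 12 of the GABA-A subunits (left) and all 16 AMPA, kainate and NMDA subunits (right) in WT mice, with 4 libraries a region. Points of Gabra2, Gabra5, Gabrb1, Gria1, Gria2, Grik4, Grin2a and Grin2b all lie right of 0, and those of Gria4 and Grin3b all lie left of it.

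Of 186 genes in the transmitter class, 7 were higher (3.76%) and 14 lower (7.53%), against 5.57% and 4.65% of all genes. The difference was not tested. The class took in 79 trophic and secreted signaling factors, which gave 3 of the higher and 6 of the lower genes. With length and GC content corrected, 6 of the 7 higher and 8 of the 14 lower genes were still called, and with only the striatal library of mouse WT-220 kept, all 7 and 9 of the 14 were. Glutamate transporters were among the higher genes. Slc1a1, the glutamate transporter of neurons, measured 122.7, 132, 144 and 142 CPM, against ranges of 21.5 to 23.9 for cerebellum, 61.4 to 67.5 for brainstem, 54.7 to 70.3 for striatum and 53.3 to 62.7 for cortex. Slc1a2, the main glutamate transporter of astrocytes, measured 3058, 2469, 3003 and 3461 CPM and 801 to 2357 elsewhere. Slc18b1, a vesicular polyamine transporter, had 0.23 ± 0.08 (SE) against the cerebellum, its lowest hippocampal library overlapped the cerebellum, and its call was lost without the cerebellar library of mouse WT-77 (0.19). Tgfb2, a secreted growth factor, had the largest size, 1.99 ± 0.16 (SE) against the brainstem, at 50.6, 73.8, 69.6 and 71.9 CPM and 6.35 to 20.3 elsewhere. Fgf10, also secreted, measured 14.8, 16.6, 19.3 and 20.1 CPM, and 11 to 12.8 in the brainstem. Fgf13 was on the same list by its name, but its protein stays in the cell and binds sodium channels, and it measured 194, 214, 224 and 242 CPM and 18 to 160.4 elsewhere.

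Of 28 genes of glutamate, GABA and glycine synthesis and transport, 4 were lower (14.3%, against 4.65% of all genes), and of 23 genes for monoamines and acetylcholine 1 was (4.35%). Slc32a1, which loads GABA and glycine into vesicles, measured 41.8, 44, 40.8 and 38.3 CPM, against ranges of 89.3 to 115 for cerebellum, 118 to 132 for brainstem, 125.1 to 259 for striatum and 84.6 to 88.4 for cortex. Its size was -1.08 ± 0.15 (SE) against the cortex (adjusted p = 6.8e-06). Gad1 and Gad2, which make GABA, were not regional, and Gad1 measured 361, 361, 374 and 374 CPM in the hippocampus and 362 to 409 in the cortex. Of 20 interneuron markers, 2 were lower, Slc32a1 and Pvalb, and none was higher. Pvalb, the calcium buffer parvalbumin of fast-spiking interneurons and Purkinje cells, measured 30.2, 29.3, 27.6 and 26.1 CPM and 72 to 651 elsewhere. Th, the first enzyme of dopamine synthesis, was below 1 CPM in the hippocampus, at 0.442, 0.467, 0.653 and 0.476, and 1.68 to 8.12 elsewhere. Penk, the enkephalin precursor, measured 19.4, 20, 16.9 and 17.3 CPM, against 295 to 1305 in the striatum and 22.9 to 43.1 in the cortex, and its call (adjusted p = 0.03) was lost when the hippocampal library of mouse WT-220 or WT-221 or the cortical library of mouse WT-70, WT-220 or WT-221 was left out (log2 fold change -0.90 to -0.81), with length and GC content corrected (-0.57), and with a block for the mouse number and no cortical library WT-221 (-0.68). The growth factors Fgf22 and Nrg1 had sizes of -1.08 ± 0.17 (SE) against the striatum and -0.98 ± 0.14 (SE) against the cortex. Slc6a9, a glycine transporter, and Abat, which breaks GABA down, had -0.52 ± 0.08 (SE) against the cortex and -0.20 ± 0.07 (SE) against the cortex.

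Genes of any class were then ranked by size, among those with at least 1 CPM in every hippocampal library, or in every other library for lower genes. Rtl3, a gene derived from a retrotransposon, measured 3.27, 3.56, 3.3 and 4.07 CPM and at most 0.321 elsewhere, with a size of 5.52 ± 0.57 (SE) against the cortex. The lincRNA Gm26644 measured 1.44, 2.77, 3.01 and 2.81 CPM, lowest in mouse WT-70, and was at 0 in all 4 striatal libraries. Slc9a4, a sodium-proton exchanger, measured 9.84, 15.1, 16.5 and 15 CPM and at most 0.555 elsewhere. Vwa3b measured 11.1, 15.6, 12.6 and 17.1 CPM and 0.22 to 1.47 elsewhere, and Pla2g2f, a secreted phospholipase, 2.43, 2.7, 3.05 and 3.95 CPM and at most 0.613. Among lower genes, Sema3a, a secreted signal that repels axons, measured 13.9, 4.76, 5.03 and 5.03 CPM and 22.8 to 35.8 elsewhere. The library of mouse WT-70 held the highest hippocampal value. Gpr153, an orphan receptor, measured 9.8, 8.4, 6.69 and 7.13 CPM and 24.5 to 39.8 elsewhere, and Kazald1, Medag and Hs3st5 had sizes of -1.66, -1.65 and -1.60. Gm12992, at 0.835, 0.302, 0.469 and 0.376 CPM, shares exons with Srsf4, and on the counts of 1 strand its smallest difference turned to 0.36, so its value is uncertain.

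Genes of corticosteroid and plasticity signaling were higher in 6 of 20 cases and lower in none, against 5.57% and 4.65% of all genes. Besides Nr3c2 and Rgs14 these included Fkbp5, a chaperone partner of steroid receptors, Camk2b, a subunit of the calcium/calmodulin kinase, and Rasgrp1, an activator of Ras. Fkbp5 measured 65.4, 73.5, 80.6 and 79.5 CPM and 9.96 to 48.7 elsewhere. Camk2a, the other main subunit, was not regional, at 3732, 3431, 4039.6 and 4536 CPM and 3135 to 4285 in the cortex. Bdnf, the growth factor, was highest on average in the hippocampus at 58.4, 59.1, 53.7 and 59.6 CPM, but its log2 fold change of 0.37 against the cortex did not pass (adjusted p = 0.15). The median log2 fold change of the 20 genes was 1.88 against the cerebellum, 2.03 against the brainstem, 0.35 against the striatum and 0.27 against the cortex. Of 28 genes of WNT and transforming growth factor beta signaling, Acvr2a was higher and the WNT receptors Fzd9 and Fzd10 were lower. Of 16 markers of adult neurogenesis, 2 were higher and none was lower. Sox11, a factor of immature neurons, measured 26.5, 22.1, 28 and 28.3 CPM and 4.79 to 16.3 elsewhere. Mfap4, a matrix protein, measured 2.09, 2.89, 2.73 and 2.88 CPM. The summed level of that list had a median of 207.1 CPM in the hippocampus and 929.2 in the cerebellum. In the brainstem, striatum and cortex it was 254.6, 163 and 179.8. The median log2 fold change of the 16 was 1.92 against the cerebellum, 0.77 against the brainstem, 0.44 against the striatum and 0.81 against the cortex.

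Of all genes, 10.2% were regional in either direction, and whether the short lists of glial and vascular markers differ from that share was not tested. None of 16 oligodendrocyte, 7 oligodendrocyte precursor, 12 microglia, 13 endothelial and mural, 8 ependymal or 13 choroid plexus markers was called, by edgeR and the rule of 4 comparisons. Summed CPM of the choroid plexus list was 2504 to 8408 for hippocampus, 236 to 4848 for cerebellum, 596 to 5468 for brainstem, 408 to 2616 for striatum and 377 to 1730 for cortex. Of 15 astrocyte markers, Slc1a2 was higher, while Aldoc, a glycolytic enzyme, and Aldh1l1, a folate enzyme, were lower. Of 9 meningeal markers, Ptgds was lower. Of 19 cortical layer markers, Bcl11b, a factor also known from granule cells and CA1, Hs3st4 and Cdh9 were higher and Foxp2 was lower.

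**Figure D5:**
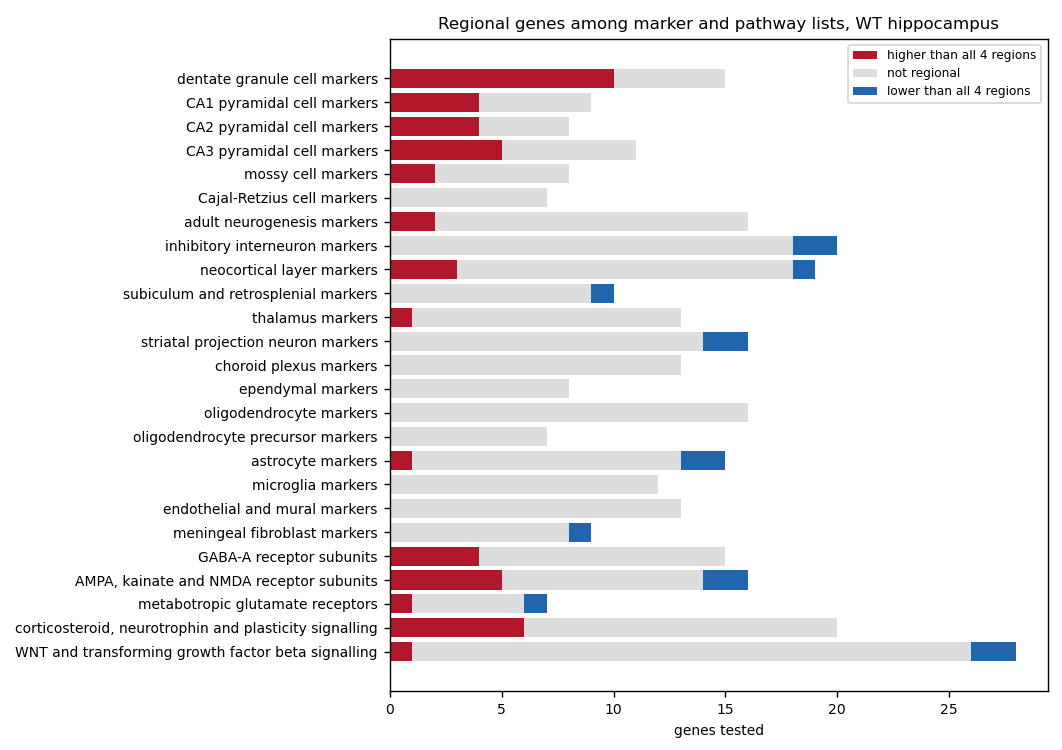
Number of genes tested in each of 25 marker and pathway lists, split into those higher than all 4 regions (red), not regional (grey) and lower than all 4 regions (blue) in the WT hippocampus. The dentate granule cell list has 10 of 15 genes in red, and 7 of the 25 lists have neither red nor blue.

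The same rule was applied to the other genotypes, whose libraries are separate from the WT ones. In 154Q mice, 942 genes were higher (4.18% of 22547 tested) and 833 lower (3.69%). In 154Q-AXH mice, 1511 were higher (6.71% of 22514) and 1463 lower (6.5%). Of the WT genes, 711 higher ones (58.6% of those tested there, and 75.5% of the 154Q list) were higher in 154Q mice, and 981 (80% and 64.9%) in 154Q-AXH mice. Of the lower ones, 528 (51.2% and 63.4%) and 854 (82.8% and 58.4%) were called. No WT regional gene was called in the opposite direction in either genotype. Without the hippocampal library of 154Q mouse 76, 2620 genes were regional in 154Q mice, against 1775 with it, and the lower genes rose in number from 833 to 1429. Leaving out the hippocampal library of 154Q mouse 69, 71 or 75 instead gave 1333, 1417 or 1508. The shares of WT genes and the calls of named genes in 154Q mice include the library of mouse 76. For 2 cortical libraries, 1 of each genotype, label and deposited name disagree, and without both 1637 genes were regional in 154Q and 2888 in 154Q-AXH mice. Of the 77 genes kept under the naming rule, 63 had the same call in 154Q mice and 75 in 154Q-AXH mice. Neurod6 and Grin3b were those not called in 154Q-AXH mice. Among the 14 not called in 154Q mice, Th, Gria1 and Stxbp6 had smallest log2 fold changes of -0.01, 0.21 and 0.05. These 3 were chosen after their values were seen. Whether genotypes differ in these genes was not tested, and a call missing in 154Q mice may depend on the library of mouse 76.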

How the data were processed

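The authors trimmed reads with Trimmomatic 0.36 and aligned them with STAR 2.7.2d to GRCm38.p6 with GENCODE M18, and deposited STAR's counts of read pairs per gene for each library of polyA RNA; the column that ignores strand was used. Genes passing edgeR's filterByExpr entered 1 quasi-likelihood model of the 20 WT libraries (edgeR 4.0.16 in R 4.3.3, TMM), with 4 contrasts and Benjamini-Hochberg adjustment over all genes. Read pairs in no gene were 3.92 to 9.15% of a library and were left out. They were 3.92 to 5.15% in striatum and cortex, and 5.98 to 9.15% in hippocampus, cerebellum and brainstem. Ambiguous pairs were 5.17 to 5.32% in the former and 4.44 to 4.80% in the latter. Whether these library measures contributed to the differences from striatum and cortex was not tested. Symbols and positions are those of GENCODE M21. The members and gene lists were chosen with earlier results of these data known. Named genes were the 8 higher and 5 lower regional genes of each class and the 10 of any class with the largest smallest difference and at least 1 CPM in every hippocampal library (higher) or every other library (lower), the regional genes of the dentate, GABA-A and AMPA, kainate and NMDA lists, and Prox1; other genes were named after their values were seen, and some genes are not reported here. Alternatives included DESeq2 1.42.0, other scalings and filters, a replicate block, omitted libraries, and a length and GC correction. The rule for calling regional genes was run on counts simulated from the means and library sizes of the WT libraries. In these, each gene had the same mean in every region, except for a set changed in the hippocampus. In the real libraries most genes differed between the hippocampus and each other region, so the simulation does not measure error there. No result given here rests on it.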

Additional observations from a re-analysis of the deposited data

Results flagged for a closer look

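In 28 of 184 sets of 4 libraries, 1 library stood apart from the other 3 by Dixon's criterion, which chance meets in about 1 of 20. In the hippocampus of mouse WT-70, Sema3a (13.9 CPM, others 4.76 to 5.03) and Emx1 (11.8) stood high, and Kcng2 (16.4), Slc18b1 (18.4) and Gm26644 (1.44) stood low. In that of mouse WT-77, Nfic (54.7) and Scrt1 (91.6) stood low and Ttr, a choroid plexus gene, stood high at 5004. In that of mouse WT-220, Chrna5 (8.2), Th (0.653) and Gabra6 (1.25), a subunit of cerebellar granule cells, stood high, and in that of mouse WT-221 so did Glis3 (15.2) and Iyd (8.1). All of the named regional genes among these kept their direction without the library in question.

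In the striatum, the library of mouse WT-220 held less of the cortical genes Cux2 (20.7 CPM) and Slc17a7 (481) and more of the striatal genes Drd1 (212), Adora2a (406.5), Ppp1r1b (2142) and Gpr6 (112.6) than the other 3. In the striatum of mouse WT-70, Ttr (1397) and Kl (45.7), both of choroid plexus, stood high, and in that of mouse WT-77 Ddx3y (62.2) stood low. In the cortex, Drd1 stood low in mouse WT-70 (7.65), Gabra6 (5.63) and Pcp2 (1.9), both of the cerebellum, stood high in mouse WT-77, and Xist stood high in the library labelled WT-221 (473). Pcp2 stood high in the cerebellum of mouse WT-70 (147.6), and Zbtb20 stood low in the brainstem of mouse WT-70 (108.8). The part of these libraries in the results was not tested beyond the omissions given.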

How the results depend on the processing

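Of 39 other settings, a test against a 2-fold difference moved the counts most, to 3914 genes against the cerebellum, 2884 against the brainstem, 1548 against the striatum and 1187 against the cortex, with 140 higher, 33 lower and 173 in all regional. With at least 1 CPM in 4 libraries required, 306 genes had a 2-fold difference from every region. With a replicate block for the mouse number, 1246 genes were higher and 1077 lower, of which 1200 and 1017 were those called without it; blocked in this way, and without the cortical library labelled WT-221, 1126 and 1013 were called. No source says that libraries of 1 number come from the same animal, and deviations from the group means correlated with r from -0.42 to 0.627 over 40 pairs of the same number (median 0.0578) and from -0.544 to 0.491 over 120 pairs of different numbers (median 0.00892). Leaving out 1 library or mouse gave 11979 to 14421 genes against the cerebellum, 11148 to 13734 against the brainstem, 10781 to 12992 against the striatum and 9825 to 13129 against the cortex, and 873 to 1365 higher, 705 to 1232 lower and 378 to 539 with a 2-fold difference. In the other genotypes it gave 1333 to 2620 in 154Q and 2592 to 3318 in 154Q-AXH mice. Of the 77 named genes, 40 kept their call under every setting. Gm12992 turned to 0.36 on the counts of 1 strand; the cause was not tested. The length and GC correction and the setting with only the striatal library of mouse WT-220 were chosen after seeing the data. The lower depth of striatum and cortex limits low genes there.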
